A study of Mus musculus with 9 samples.

Results

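The visual cycle genes *Rpe65*, *Lrat*, *Rlbp1*, *Rdh5*, *Rdh8*, *Rdh10*, *Rdh11*, *Rdh12*, *Rbp3* and *Abca4*, were read from the RNA-Seq tables of an *Rbpms*-CreERT2 knock-in mouse study. These 10 genes were chosen by gene symbol for their known roles in retinoid handling. They are among 25239 listed in every table, and all 10 reached the mean of 1 TPM (transcripts scaled to library size and gene length) required for testing. The libraries were made from whole retinas of C57BL/6J mice at postnatal day 42 (P42), and each held both retinas of 1 animal. There were 3 libraries each of +/+ mice, of Rbpms-CreERT2/+ mice (Cre/+) and of Rbpms-CreERT2/CreERT2 mice (Cre/Cre), with controls taken from the same litters. In the knock-in allele, a P2A-CreERT2 sequence follows the last codon of *Rbpms*, so the recombinase is made from the endogenous locus, which is active in retinal ganglion cells. It is 1 knock-in line, and the sources give no tamoxifen treatment for the sequenced mice.

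Vision depends on 11-cis-retinal bound to opsin. Light converts it to all-trans-retinal, which is cleared from the photoreceptor disc, reduced to retinol and carried to the retinal pigment epithelium, where it is esterified, isomerised, oxidised and returned. The cycle is therefore divided between photoreceptors, the pigment epithelium and, for cones, Müller glia. ABCA4 is the disc transporter, RDH8 and RDH12 reduce all-trans-retinal, RBP3 (also called IRBP) carries retinoids across the space between the cells, LRAT esterifies retinol, RPE65 isomerises the ester, RDH5 oxidises 11-cis-retinol and RLBP1 (CRALBP) binds 11-cis-retinoids. RDH10 and RDH11 are further retinol dehydrogenases. C57BL/6 mice are known to carry an *Rpe65* allele of reduced activity, which all 3 genotypes here share and which an RNA level does not read.

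The sequences before the start sites are shown for 5 genes. *Rpe65*, *Lrat* and *Rdh5* are shown because all 3 were highest in one library and lowest in another, the same ones for each, and *Rbp3* and *Abca4* because they are photoreceptor genes that share a motif match with *Rpe65*. RefSeq promoter entries on GRCm38.p6, the assembly of mm10, matched 9 of the 10 genes with 10 entries, and the gene without an entry was *Rdh10*. Each line gives the 250 bases before the start, 5′ to 3′ on the strand of the gene. These lie at chr3:159598931-159599180 on the plus strand for *Rpe65*, chr3:82903975-82904224 on the minus strand for *Lrat*, chr10:128919298-128919547 on the minus strand for *Rdh5*, chr14:33953753-33954002 on the plus strand for *Rbp3* and chr3:122044210-122044459 on the plus strand for *Abca4*. Capitals mark matches on either strand to TAATCC (a core bound by CRX and OTX factors, which reads GGATTA on the other strand), CACGTG (an E-box) or CATGTG (an M-box core, which reads CACATG on the other strand).
*Rpe65*: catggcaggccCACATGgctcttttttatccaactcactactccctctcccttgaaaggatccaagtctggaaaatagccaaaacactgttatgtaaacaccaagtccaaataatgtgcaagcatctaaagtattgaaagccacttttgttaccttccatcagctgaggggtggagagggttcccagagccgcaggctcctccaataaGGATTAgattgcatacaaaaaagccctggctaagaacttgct
*Lrat*: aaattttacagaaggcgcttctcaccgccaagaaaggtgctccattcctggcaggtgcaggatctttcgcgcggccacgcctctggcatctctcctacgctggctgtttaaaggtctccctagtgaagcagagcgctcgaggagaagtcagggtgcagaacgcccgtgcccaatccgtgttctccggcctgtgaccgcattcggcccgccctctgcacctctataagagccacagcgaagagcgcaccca
*Rdh5*: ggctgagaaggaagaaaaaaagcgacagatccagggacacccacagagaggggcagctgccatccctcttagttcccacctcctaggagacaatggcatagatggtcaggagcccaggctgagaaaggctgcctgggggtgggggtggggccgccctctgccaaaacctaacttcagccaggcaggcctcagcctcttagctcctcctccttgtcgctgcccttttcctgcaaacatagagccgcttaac
*Rbp3*: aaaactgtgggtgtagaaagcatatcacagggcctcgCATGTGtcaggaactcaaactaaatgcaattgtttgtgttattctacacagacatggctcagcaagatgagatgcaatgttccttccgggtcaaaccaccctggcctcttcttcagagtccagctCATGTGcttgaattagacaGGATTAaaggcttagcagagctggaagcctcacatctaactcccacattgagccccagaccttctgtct
*Abca4*: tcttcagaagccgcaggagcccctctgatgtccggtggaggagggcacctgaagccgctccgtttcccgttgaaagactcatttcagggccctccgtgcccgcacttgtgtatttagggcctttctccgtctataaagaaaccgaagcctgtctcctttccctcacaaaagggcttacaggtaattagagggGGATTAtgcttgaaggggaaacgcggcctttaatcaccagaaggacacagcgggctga

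TAATCC occurred in 3 of the 10 entries, 42 bases before the start of *Rpe65*, 69 bases before that of *Rbp3* and 58 bases before that of *Abca4*. It occurred in 6.25% of all 32851 promoter entries of the same length. CATGTG occurred before *Rpe65*, *Rlbp1* and *Rbp3*, against 12.25% of all entries, and CACGTG only in 1 of the 2 entries of *Rdh11*, against 6.02%. No match to the 3 motifs was found in the windows of *Lrat*, *Rdh5*, *Rdh8* and *Rdh12*, or in the other entry of *Rdh11*. Each match is a description of the letters in these windows.

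The samples were first checked as a set. *Rbpms*, the targeted gene, fell from a mean of 41.7 TPM in +/+ to 32.2 in Cre/+ and 21.02 in Cre/Cre. The difference of Cre/Cre from +/+ passed limma's test (log2 fold change -0.96, SE 0.10, adjusted p = 0.000581), and that of Cre/+ did not (adjusted p = 0.355). Aligned depth ranged from 4.05 to 4.65 gigabases. The ribosomal RNA gene *Rn45s* accounted for 9.21% of the summed TPM of Cre/Cre replicate 1, where the other libraries had 0.336% or less. *Xist* was at 2.08 to 3.16 TPM in Cre/+ replicate 3 and Cre/Cre replicates 1 and 3 and at 516 to 585 TPM elsewhere, so both sexes were present and unevenly spread over the genotypes. The labelled tissue was checked by its marker *Sag*, the arrestin of rods, which lay between 4716 and 6205 TPM.

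Levels of the 10 genes spanned a 1829-fold range of mean TPM, a scale that is corrected for gene length. *Rbp3* was highest at 2797 TPM ± 128 (SD, n = 9). *Rdh12* (657 ± 56.4) and *Abca4* (638 ± 37.7) followed and were not separated, since their ranges overlapped and *Rdh12* was the higher in 7 of the 9 libraries. Below these came *Rlbp1* at 478 ± 21.9, *Rdh8* at 158 ± 10.7, *Rdh11* at 68.9 ± 4.82 and *Rdh10* at 47.7 ± 4.44, each with a range clear of its neighbours. The pigment epithelium enzymes were lowest, with *Rdh5* at 8.00 ± 2.39, *Rpe65* at 4.81 ± 3.09 and *Lrat* at 1.53 ± 0.762. The ranges of these last 3 overlapped between neighbours, although *Rdh5* was above *Rpe65* and *Rpe65* above *Lrat* in all 9 libraries. Coverage, the mean number of reads over the bases of a gene, ran from 2832 to 3779 for *Rbp3*, from 1.24 to 15.6 for *Rpe65* and from 0.855 to 4.58 for *Lrat*, so counting error weighs most on the last 2. In a bulk sample, fewer cells of a type and less RNA per cell cannot be told apart.

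**Figure D1:**
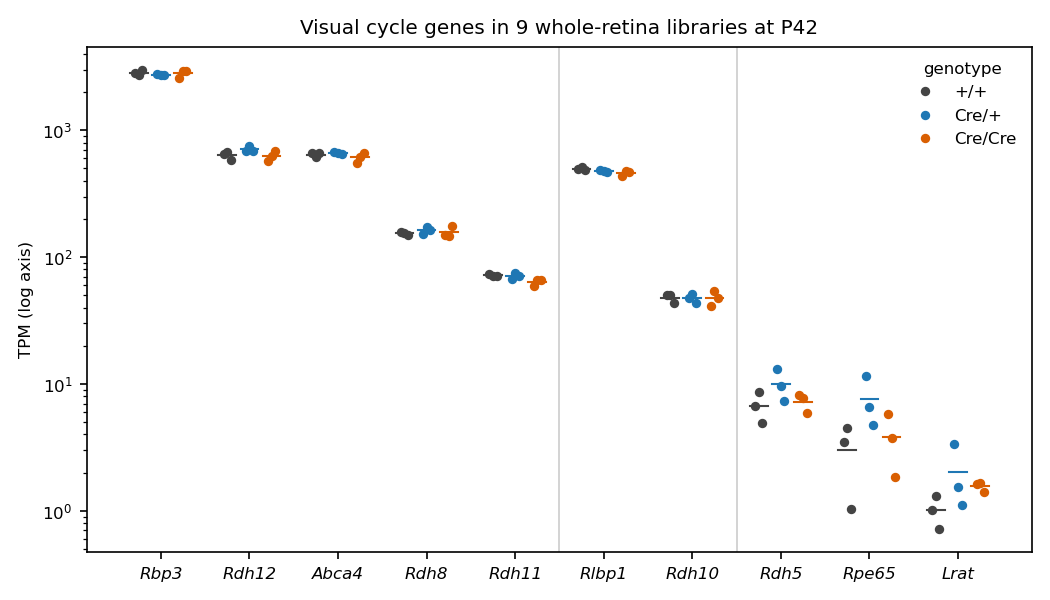
TPM (log axis) of the 10 visual cycle genes in each of 9 libraries, grouped as photoreceptor genes, *Rlbp1* and *Rdh10*, and pigment epithelium enzymes. Points are libraries and lines are means of 3. The 7 genes on the left sit in tight groups, and *Rdh5*, *Rpe65* and *Lrat* spread widely within each genotype.

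The pigment epithelium enzymes *Rpe65*, *Rdh5* and *Lrat* had higher means in Cre/+ than in +/+, but none passed the test. For *Rpe65*, the isomerase on chromosome 3, the 3 +/+ libraries held 3.48, 4.47 and 1.03 TPM, the Cre/+ libraries 11.6, 6.63 and 4.73, and the Cre/Cre libraries 5.80, 3.73 and 1.84. Every Cre/+ library was above every +/+ library, and the Cre/Cre libraries overlapped both. In limma the log2 fold change, on the log2(TPM + 1) scale used for all fold changes here, was 1.16 (SE 0.50, adjusted p = 0.467) in Cre/+ and 0.29 (SE 0.50, adjusted p = 0.964) in Cre/Cre. Cre/+ replicate 1 decided much of the size. The Cre/+ mean of *Rpe65* was 255.5% of the +/+ mean with that library and 190% without it. The Cre/Cre mean was 126.7% of the +/+ mean with Cre/Cre replicate 1, the library with the *Rn45s* share, and 93.15% without it.

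*Rdh5*, the 11-cis-retinol dehydrogenase on chromosome 10, stood at 6.68, 8.58 and 4.90 TPM in +/+, at 13.1, 9.68 and 7.28 in Cre/+ and at 8.17, 7.71 and 5.86 in Cre/Cre. All 3 genotypes overlapped. It had the smallest p of the 10 genes in Cre/+ against +/+ (limma log2 fold change 0.51, SE 0.21, unadjusted p = 0.0316, adjusted p = 0.428). *Rdh5* lies 616 bases from *Bloc1s1* on the same strand, and 20.4% of the 50-base stretches in its annotated transcripts are shared with other genes, chiefly *Bloc1s1*, so its level is uncertain. *Bloc1s1* ranged from 79.5 to 119.8 TPM and was highest in +/+ replicate 3, where *Rdh5* was lowest. Mean *Bloc1s1* was 105.2, 84.1 and 100.9 TPM in +/+, Cre/+ and Cre/Cre, and mean *Rdh5* was 6.72, 10.02 and 7.245. Whether the shared stretches bear on the *Rdh5* differences was not tested.

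*Lrat*, the retinol acyltransferase, also on chromosome 3, stood at 1.02, 1.32 and 0.713 TPM in +/+, at 3.39, 1.54 and 1.12 in Cre/+ and at 1.62, 1.64 and 1.40 in Cre/Cre. The Cre/Cre libraries were all above the +/+ libraries, and the Cre/+ libraries overlapped both. The limma log2 fold change was 0.52 (SE 0.26, adjusted p = 0.470) in Cre/+ and 0.35 (SE 0.26, adjusted p = 0.858) in Cre/Cre. At so low a level, the added 1 TPM makes a log2 fold change smaller than a ratio of TPM alone would give. Without Cre/+ replicate 1 the Cre/+ mean of *Lrat* fell from 198% to 130% of the +/+ mean, and that of *Rdh5* from 149% to 126%.

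In the Müller glia and pigment epithelium group, *Rlbp1* had means a few percent lower with the knock-in, *Rdh10* had nearly equal means, and neither passed the test. *Rlbp1*, the 11-cis-retinoid carrier on chromosome 7, stood at 493, 514 and 486 TPM in +/+, at 485, 476 and 467 in Cre/+ and at 433, 480 and 472 in Cre/Cre. All 6 knock-in libraries were below all 3 +/+ libraries, although Cre/+ replicate 1 was within 1 TPM of +/+ replicate 3. The means were 95.6% of +/+ in Cre/+ and 92.8% in Cre/Cre, and limma's adjusted p was 0.740 and 0.829. After median-ratio scaling, which corrects for the share taken by genes such as *Rn45s*, the Cre/Cre libraries (459 to 472) were below the +/+ libraries (475 to 521), and the Cre/+ libraries overlapped them. How many of all genes separate after this scaling was not computed. *Rdh10*, on chromosome 1, ranged from 40.8 to 54.5 TPM, with means of 47.9, 47.4 and 47.7 in +/+, Cre/+ and Cre/Cre.

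In the group listed here as photoreceptor genes, *Rdh11* was lower in Cre/Cre, *Rdh12* was higher in Cre/+, and neither passed the adjusted p. The grouping was assigned and was not read from these whole-retina libraries. *Rdh11* held 73.6, 70.9 and 70.7 TPM in +/+, 67.3, 75.0 and 71.2 in Cre/+ and 59.3, 66.2 and 65.7 in Cre/Cre. The 3 Cre/Cre libraries were below all others. After median-ratio scaling they lay between 63.9 and 64.8 against 66.6 to 74.7 in the other 6, and the share of all genes that separate so was not computed. The log2 fold change of *Rdh11* in Cre/Cre against +/+ was -0.17 in limma (SE 0.08, unadjusted p = 0.0409, adjusted p = 0.704).

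*Rdh12*, its neighbour 17057 bases away on the opposite strand of chromosome 12, held 656, 672 and 584 TPM in +/+, 689, 747 and 684 in Cre/+ and 570, 621 and 690 in Cre/Cre. Every Cre/+ library was above the +/+ libraries, and Cre/Cre overlapped both. The limma log2 fold change in Cre/+ was 0.15 (SE 0.08, adjusted p = 0.509), and the genotypes overlapped after median-ratio scaling.

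In TPM, *Rbp3*, *Abca4* and *Rdh8* did not separate the genotypes. *Rbp3*, on chromosome 14, had means of 2839 ± 134, 2741 ± 35.4 and 2810 ± 197 TPM in +/+, Cre/+ and Cre/Cre (SD, n = 3 each), and those of *Abca4*, on chromosome 3, were 644 ± 25.9, 660 ± 11.2 and 611 ± 55.0. Means of *Rdh8*, on chromosome 9, were 154 ± 4.70, 163 ± 11.1 and 157 ± 15.7 TPM. After median-ratio scaling *Rbp3* lay between 2649 and 2747 in Cre/+, below both other genotypes. The +/+ libraries held 2755 to 2920 and the Cre/Cre libraries 2814 to 2856. The TPM showed neither separation, and the share of all genes that separate after scaling was not computed. Cre/Cre replicate 1, the library with the *Rn45s* share, held the lowest TPM of 6 of the 10 genes.

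**Figure D2:**
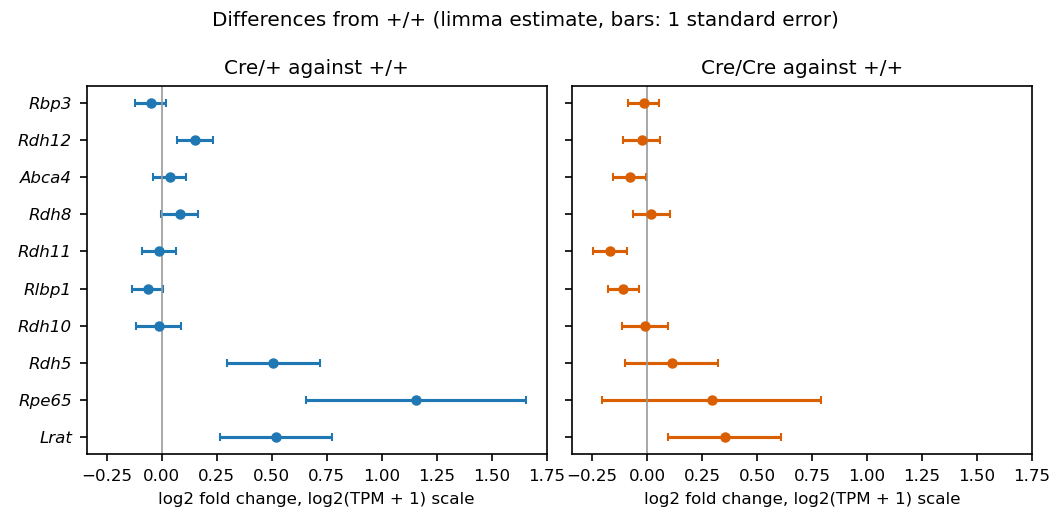
Limma log2 fold changes on the log2(TPM + 1) scale of the 10 genes in Cre/+ (left) and Cre/Cre (right) against +/+, with bars of 1 standard error and 3 libraries per genotype. *Rpe65*, *Rdh5* and *Lrat* in Cre/+ lie farthest right with the widest bars, and the other 7 genes lie between -0.17 and 0.15.

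In tests across all genes, 0 of the 10 genes passed an adjusted p of 0.05 in limma. In Cre/+ against +/+ this stands beside 0.00658% of the 15198 genes tested, and the smallest adjusted p of the 10 was 0.428. In Cre/Cre against +/+ the share of all genes was also 0.00658% and the smallest adjusted p was 0.704, and in Cre/Cre against Cre/+ they were 0.0132% and 0.740. A trend over 0, 1 and 2 knock-in alleles called 0 of the 10 against 0.00658% of all genes, with a smallest adjusted p of 0.798. At an unadjusted p under 0.05 the comparisons with +/+ gave 1 gene each, *Rdh5* in Cre/+ (10.7% of all genes tested) and *Rdh11* in Cre/Cre (6.97%). Cre/Cre against Cre/+ gave 0 (6.58%) and the trend 1, *Rdh11* (6.24%).

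Genotypes without overlap were found for 3 of the 10 genes in Cre/+ against +/+, namely *Rpe65*, *Rdh12* and *Rlbp1*, where 22.2% of all genes tested did not overlap. The count was 3 of 10 in Cre/Cre against +/+ (*Lrat*, *Rlbp1* and *Rdh11*), beside 10.8% of all genes, and 1 of 10 in Cre/Cre against Cre/+ (*Rdh11*), beside 12.0%. With 3 libraries against 3, an exact permutation test cannot go below p = 0.1. In the exact test of the slope over knock-in alleles over all arrangements of the 9 libraries, *Rlbp1* reached p = 0.0179 and *Rdh11* p = 0.0262 before adjustment, both with a falling level, and the other 8 genes had p of 0.329 or more. Of all genes tested, 6.67% reached an unadjusted p under 0.05 in this exact test. In the limma trend *Rlbp1* had an unadjusted p of 0.126, and both genes were lowest in Cre/Cre replicate 1. The median log2 fold change of the 10 genes was 0.06 in Cre/+ and -0.01 in Cre/Cre, against 0.00 and -0.02 over all genes tested. In Cre/Cre against Cre/+ the median was -0.14, against -0.03 over all genes tested. There, 8 of the 10 genes were lower, beside 9001 of the 15198 genes tested.

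Spread between libraries was then described gene by gene. *Rpe65* varied 11.2-fold over the 9 libraries, *Lrat* 4.76-fold and *Rdh5* 2.68-fold, while the other 7 genes varied 1.16- to 1.34-fold. All 3 were highest in Cre/+ replicate 1 and lowest in +/+ replicate 3. Summed, the 3 enzymes ranged from 6.64 to 28.1 TPM, and the other 7 genes from 4385 to 5050 TPM. The SD of *Rpe65* within genotypes was 0.66 on the log2 scale, more than in 95.8% of genes of like level (within 1.5-fold of its mean TPM). For *Rdh5* it was 0.33, more than in 88.7%, and for *Lrat* 0.34, more than in 68.3%. A spread above that of most genes of like level was not limited to these 3, since *Rdh10* had an SD above 86.9% and *Rdh12* above 68.2% of them. The SD of *Rlbp1* was above 4.81%.

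The genes whose pattern over the 9 libraries was most like that of *Rpe65* were *Rgr* and *Ttr*, by the root mean square difference of centred log2(TPM + 1), which was 0.19 and 0.22. Next came *Dkkl1*, *Gm11423* and *0610040B10Rik* at 0.34 to 0.46, and *Rdh5* was the nearest of the 10 genes at 0.40. *Rgr*, a retinal isomerising opsin of pigment epithelium and Müller glia, held 7.78, 8.99 and 2.76 TPM in +/+, 16.8, 10.1 and 6.97 in Cre/+ and 9.38, 6.60 and 4.397 in Cre/Cre. *Ttr*, the transthyretin carrier of retinol-binding protein and thyroxine, held 26.1, 32.2 and 11.4, then 56.4, 35.8 and 22.0, then 32.3, 24.2 and 17.5. Both were highest and lowest in the same libraries as *Rpe65*. For *Rbp3* the nearest genes were *Trim35*, *Abhd4*, *Egflam*, *Mfn2* and *Cdk16* (0.025 to 0.030), and for *Rlbp1* they were *Mgarp*, *Mgat1*, *Tsnax*, *Sdhc* and *Dbndd2* (0.021 to 0.025).

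**Figure D3:**
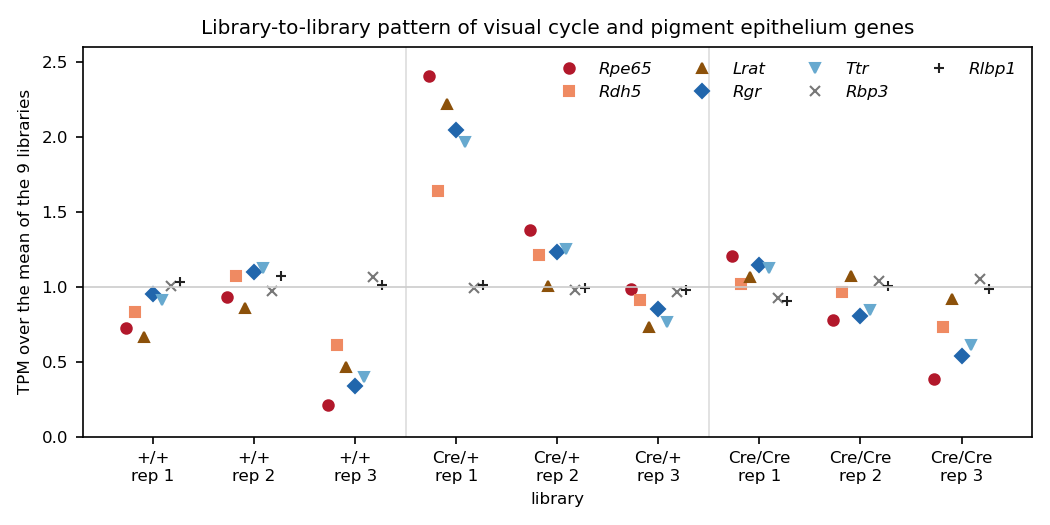
TPM of each gene over its mean of the 9 libraries, by library. *Rpe65*, *Rdh5*, *Lrat*, *Rgr* and *Ttr* are all highest in Cre/+ replicate 1 and lowest in +/+ replicate 3, while *Rbp3* and *Rlbp1* stay near 1.

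Across the 9 libraries, 63 relations were computed, 45 between the 10 genes and 18 of the 3 enzymes with defining genes of the pigment epithelium, and the p-values were adjusted over all 63. *Rpe65* and *Rdh5* had a Pearson r of 0.967 on the log2 scale (exact permutation p = 0.000124, adjusted p = 0.0026) and a Spearman coefficient of 0.917 (exact permutation p = 0.00131, adjusted p = 0.0207). Leaving out the 2 libraries farthest from the median of *Rpe65*, +/+ replicate 3 and Cre/+ replicate 1, gave r = 0.898, and within genotypes r was 0.945. *Lrat* and *Rdh5* had r = 0.876 (exact permutation p = 0.00338, adjusted p = 0.0355) and a Spearman coefficient of 0.717 (exact permutation p = 0.0369, adjusted p = 0.290), but r fell to 0.427 without those 2 libraries, so the relation rests on them. *Rpe65* and *Lrat* had r = 0.807 (exact permutation p = 0.0119, adjusted p = 0.0937) and a Spearman coefficient of 0.667 (exact permutation p = 0.0589, adjusted p = 0.412), with r = 0.227 without them.

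The 21 pairs among the other 7 genes had r from -0.04 to 0.77, and the 21 pairs of an enzyme with one of the 7 had r from -0.69 to 0.43, and none of these 42 passed the adjusted p. Part of the shared movement of the 7 went with scaling. Of their 21 pairs, 20 had r above 0 in TPM and 11 after median-ratio scaling.

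**Figure D4:**
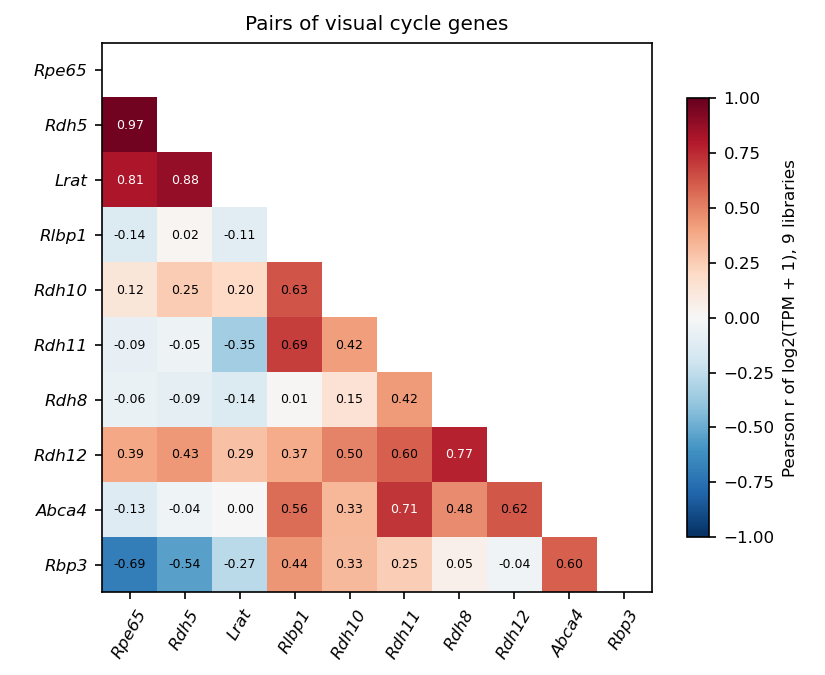
Pearson r of log2(TPM + 1) over 9 libraries for the 45 pairs of visual cycle genes, red for above 0 and blue for below 0. The block of *Rpe65*, *Rdh5* and *Lrat* (0.81 to 0.97) stands apart from their pairs with the other 7 genes.

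The relation of *Rpe65* with *Rgr* had r = 0.978 (exact permutation p = 9.1e-05, adjusted p = 0.0026) and a Spearman coefficient of 0.917 (exact permutation p = 0.00131, adjusted p = 0.0207), with r = 0.920 without the same 2 libraries and 0.989 within genotypes. With *Ttr* it had r = 0.963 (exact permutation p = 0.00019, adjusted p = 0.00267) and a Spearman coefficient of 0.883 (exact permutation p = 0.00308, adjusted p = 0.0388), with r = 0.860 without them and 0.976 within genotypes. *Rdh5* had r = 0.960 with *Rgr* and 0.969 with *Ttr*. *Lrat* had r = 0.801 with *Rgr* (exact permutation, adjusted p = 0.104) and 0.831 with *Ttr* (adjusted p = 0.0845). Without the same 2 libraries these fell to 0.117 and 0.278. The other 4 defining genes did not move with *Rpe65* in this way, and r of *Rpe65* was 0.254 with *Best1*, 0.447 with *Slc16a8*, 0.081 with *Rrh* and 0.292 with *Stra6*. *Rgr* and *Ttr* are also the genes picked above, among all genes tested, for their likeness to *Rpe65*. The p-values were adjusted over the 63 relations only and do not count that choice. For *Rgr* and *Ttr* they therefore describe the likeness to *Rpe65* and do not test it.

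The 6 defining genes summed to 51.6 TPM in +/+ replicate 3 and 126.9 in Cre/+ replicate 1, the same extremes as the 3 enzymes. *Ttr* made up 45.0 TPM and *Rgr* 14.0 TPM of this difference of 75.3 TPM, and of the 6 genes 3 were highest in Cre/+ replicate 1 and 3 lowest in +/+ replicate 3. The whole list of 14 pigment epithelium markers ran from 161 to 178 TPM in +/+, from 155 to 241 in Cre/+ and from 179 to 186 in Cre/Cre, with its lowest sum in Cre/+ replicate 3. *Krt18*, a keratin gene, was the largest single term at 76.4 to 102.8 TPM. Of the 14, *Krt8*, *Mlana* and *Slc45a2* were at 0 in at least 1 library and none was at 0 in all. The 6 melanin genes summed to between 3.91 and 9.36 TPM, with the highest sum in Cre/Cre replicate 2, a library that also held 902 TPM of lens genes against 10.7 to 201 elsewhere. Cone and Müller glia marker sums varied 1.11- and 1.22-fold. Within a library, *Rpe65* over *Rgr* was 0.374 to 0.497 in +/+, 0.658 to 0.691 in Cre/+ and 0.419 to 0.618 in Cre/Cre. *Rpe65* over *Ttr* was 0.0908 to 0.139, 0.185 to 0.215 and 0.1055 to 0.180. The same ratios of *Lrat* and *Rdh5* overlapped between all genotypes. These ratios were added after the values were seen and were not tested. Whether pigment epithelium left on the dissected retina set the levels of *Rpe65*, *Rdh5* and *Lrat* was not tested.

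The rest of the retinoid pathway was read from a list of 39 other genes, of which 26 reached the mean of 1 TPM and 0 passed the adjusted p in any of the 3 comparisons (smallest limma adjusted p 0.319, 0.760 and 0.740). At an unadjusted limma p under 0.05 there were 1, 0 and 1 of the 26, both *Crabp1*, beside 10.7%, 6.97% and 6.58% of all genes tested. Their median log2 fold change was 0.00 in Cre/+ and -0.02 in Cre/Cre. *Crabp1*, which binds retinoic acid in the cytosol, went from 21.5 ± 1.77 TPM in +/+ to 13.7 ± 3.596 in Cre/+ and 17.3 ± 1.25 in Cre/Cre (SD, n = 3 each). Its log2 fold change in Cre/+ was -0.64 in limma (SE 0.15, adjusted p = 0.319), and both knock-in genotypes were below all +/+ libraries.

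Besides *Crabp1*, genotypes did not overlap for *Dgat1* (lower in Cre/+ than in +/+), *Stra6* (higher in Cre/Cre than in +/+), *Bco2* and *Rxrb* (lower in Cre/Cre than in +/+) and *Cyp26b1* (higher in Cre/Cre than in Cre/+). That made 2, 4 and 1 of the 26 in the 3 comparisons, beside the shares of all genes given above. *Stra6*, the receptor for retinol-binding protein, had means of 4.07, 5.33 and 5.30 TPM in +/+, Cre/+ and Cre/Cre. By the mean of the 9 libraries, the most abundant members of each group were *Dhrs3* (79.0 TPM) among dehydrogenases and reductases, *Ttr* (28.6, above *Crabp1* in 7 of 9 libraries) among carriers, *Rrh* (33.5) among the isomerising opsins, *Degs1* (69.6) among esterification and cone-cycle candidates, *Aldh1a1* (69.4) for retinoic acid synthesis, *Retsat* (14.3) among carotenoid and saturation enzymes and *Rxrb* (65.3) among receptors. *Rdh7*, *Dhrs9* and *Sdr16c5* were listed at 0 in all 9 libraries.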

How the data were processed

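Poly(A)-selected RNA of whole mouse retinas was sequenced as strand-specific paired reads of 150 bases. The authors named Trimmomatic, FastQC, HISAT2 (mm10), SAMtools, StringTie and DESeq2. Versions and annotation are not given in the sources used here. The deposited tables hold StringTie TPM, FPKM and coverage (a signal of mean reads per base) for each gene, and no counts. The TPM that the authors deposited sum to 1000000 per library. Deposited FPKM served as an alternative unit, and deposited coverage gave depth.

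TPM were summed by gene symbol. Testing was limited to the 15198 of 25239 genes whose mean reached 1 TPM, and used limma 3.58.1 in R 4.3.3, with trend and robust prior, on log2(TPM + 1). A single fit with a term for genotype took in the 9 libraries (6 residual degrees of freedom), and p-values were adjusted by Benjamini-Hochberg over all genes tested, with a limit of 0.05. Single genes were tested with two-sided exact permutation tests. Scripts were tested on simulated data. The labels number the libraries as replicates within a genotype and do not say whether these numbers mark litters or days.

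The 10 genes and all lists were chosen with earlier results of these data known. Genes named are the 10, the listed retinoid and marker genes, the 5 most similar genes to *Rpe65*, *Rbp3* and *Rlbp1*, library checks and neighbouring genes. *Dgat1*, *Bco2*, *Rxrb* and *Cyp26b1* were named after their values were seen, for not overlapping between genotypes, and the set of relations was also chosen then. Alternatives were a pseudocount of 0.1, no filter, a replicate block, *Xist* as a covariate, only the genotypes compared, FPKM, median-ratio scaling, no robust prior and each library left out. Positions come from the deposited tables, promoters from RefSeq (GRCm38.p6), and shared 50-base stretches from GENCODE M21 transcripts. Plots used matplotlib 3.10.9 (Python 3.11.15). Protein sequences were not analysed here.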

Additional observations from a re-analysis of the deposited data

How the results depend on the processing

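None of the 10 visual cycle genes passed an adjusted p of 0.05 in limma under any alternative that was run, in any of the 3 comparisons or the trend, and the smallest adjusted p was 0.244 (*Rdh12* in Cre/+ against +/+). With the replicate number as a block the count of called genes also stayed at 0 in each comparison. Residuals of same-numbered libraries correlated between -0.12 and 0.13, so the numbers were not taken to pair them. Leaving out each library in turn gave 0 called genes throughout. Of 666 recomputed log2 differences of single genes, 51 had the other sign, all at a size of 0.15 or less. At FPKM in place of TPM *Lrat* fell below the filter and 9 genes were tested. An unadjusted p under 0.05 was kept by *Rdh11* in Cre/Cre against +/+ in 9 of 17 alternatives and by *Rdh5* in Cre/+ against +/+ in 12 of 17. For *Rdh11* the log2 fold change ranged from -0.21 to -0.12 over the 17, and the 8 that lost it were *Xist* as a covariate, only the genotypes compared, and leaving out any +/+ library, Cre/+ replicate 2 or 3, or Cre/Cre replicate 1. *Rpe65*, with an unadjusted limma p of 0.0534 in Cre/+ against +/+ in the main fit, fell under 0.05 in several alternatives. Under median-ratio scaling it was the only one of the 10 genes to do so in this comparison, and *Rdh5* did not. Over the 17 alternatives, 783 to 2562 genes in all had an unadjusted p under 0.05 in Cre/+ against +/+. In Cre/Cre against +/+ there were 756 to 1440. The low coverage of *Rpe65* and *Lrat* and the 3 libraries per genotype limit what could be detected.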
